A study of Mus musculus with 2148 samples.

Results

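Newborn and adult medullary thymic epithelial cells with little MHC class II on their surface (mTEClo) were compared in a series of single mouse thymic cells, of which they made up 24.3%. Of these cells 25.8% were newborn and 74.2% adult. Membership of a cell followed from its labels alone (sort, genotype and age). All mice of the cells compared were wild-type (WT) C57BL/6, and their labels name no altered allele and no treatment. Each cell was read by RamDA-seq, which covers whole transcripts, with or without a poly(A) tail. After removal of CD45+ cells, live EpCAM+ cells lacking CD45 and the cortical surface marker Ly51 were sorted at low MHC class II.

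The newborn cells came from mice of 1 day, with the sex given as unknown, and filled plates 16, 17, 18, 19 and 20 with 11, 30, 25, 29 and 29 cells (plate is used here for the experimental batch number of the labels). The adult cells came from male mice. Plate 2 held 66 cells from mice of 4 weeks, plate 5 held 74 cells from mice of 5 weeks, and plates 32, 33 and 34 held 77, 68 and 72 cells from mice of 8 weeks. Mice are not numbered in the labels, so the newborn cells form 1 mouse pool and the adult cells 3 pools, of which 4 and 5 weeks have 1 plate each. Age can therefore not be told apart from mouse pool, from plate, or from the unknown sex of the newborn mice, and p-values over plates measure the spread between plates, which may be technical. Counts were summed per plate and given as CPM (reads per 1e6 reads on genes). In such sums, fewer cells of a type and less RNA per cell cannot be told apart.

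Thymic epithelial cells instruct developing T cells. Cortical cells (cTEC) carry Notch ligands and a thymus-specific proteasome and drive T-lineage commitment and positive selection, while medullary cells (mTEC) display self-antigens. The mTEClo gate is known to hold immature medullary cells, cells making the chemokine Ccl21a, and several kinds of mimetic cells that copy peripheral tissues such as tuft cells. Around birth the thymus grows fast, and epithelial progenitors with features of both compartments have been described at that stage.

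The newborn plates held 80067195 reads in all and the adult plates 219424719, with medians of 642575 and 592899 reads and 14034.5 and 12067 genes per cell. Epcam, which encodes the sorting antigen, was at 263.9 ± 70.4 CPM in newborn and 395.002 ± 36.6 CPM in adult plates (mean ± SD, n = 5 plates each). Enpep, which encodes the excluded antigen Ly51, was at 58.1 ± 16.9 CPM in newborn and 15.5 ± 11.5 CPM in adult plates, against 191.004 CPM in newborn and 392.8 CPM in adult cTEC. Female-specific Xist transcripts reached 235.8 to 495.3 CPM in newborn and 5.97 to 58.4 CPM in adult plates, and Y-linked transcripts were read in every plate of both groups. The part of sex in any difference was not tested. In adult plates 32, 33 and 34, from mice labelled male, between 90.3 and 97.4% of cells had a Xist read, and where these reads came from, or what this means for other low levels in these plates, was not tested.

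Of 22282 genes tested, 8.93% (1989) were higher and 7.32% lower in newborn than in adult plates by edgeR's quasi-likelihood test over plates, where called means at least 2-fold apart with a Benjamini-Hochberg adjusted p under 0.05. At an unadjusted p under 0.05 these shares were 20.0% and 20.2%. All 5 newborn plates lay above all 5 adult plates for 86.3% of the genes called higher (7.71% of all tested), and below them for 65.8% of those called lower (4.82%). Over all genes tested, called or not, the newborn plates lay above all adult plates for 14.1% and below them for 8.33%. With the mouse pool as a random block in limma, whose correlation within pools was 0.573, 1.2% of the genes were higher and 0.13% lower, of which 98.5% and 96.6% were also called over plates. With mouse pools as the units, edgeR called 0 of 39971 genes in each direction between the 4 pools compared. The filter and the spread of that fit also drew on pools of mTEChi (the sort with high MHC class II). They drew as well on pools of adult mTEC from mice lacking the gene Aire (Aire-KO). At an unadjusted p under 0.05 that test had 5.62% of genes higher and 4.32% lower, and its smallest adjusted p was 0.0775. The median log2 fold change (newborn minus adult) over all genes tested was -0.04.

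Among the fetal growth and imprinted genes, H19 and Hmga2 were at or near 0 in all adult plates and high in all newborn plates. Of 32 listed genes 28 were tested, 15 were higher and 1 was lower (Nr6a1), against 8.93% and 7.32% of all genes tested, with a median log2 fold change of 1.85. Only Hmga2 and Igf2bp2 were also called with the pool block, which called 1.2% of all genes tested higher.

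H19, the imprinted noncoding RNA of the Igf2 locus (ENSMUSG00000000031, GRCm38 chr7:142575529-142578143, minus strand), was at 332.7, 177.2, 225.1, 146.2 and 70.7 CPM in newborn plates 16 to 20. In adult plates 2, 5, 32, 33 and 34 it was at 0, 0.0834, 0.267, 0.116 and 0.0544 CPM. The groups did not overlap, and newborn plate 16 was the highest and plate 20 the lowest of the newborn plates. The log2 fold change was 10.76 (SE 0.75, adjusted p = 4.76e-05; 0.126 with the pool block), and without adult plate 32 it was 11.43. Without the pool of 8 weeks it was 11.83. H19 reads were spread over cells: 48.4% of newborn cells had at least 5 reads, and the highest cell held 8.99985% of the 13278 newborn reads.

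Hmga2, an architectural chromatin protein of fetal and stem cells (ENSMUSG00000056758, GRCm38 chr10:120361275-120476469, minus strand), was at 33.8, 48.6, 45.05, 43.5 and 33.7 CPM in the newborn plates. The adult plates gave 0.0426, 0, 0.0486, 0 and 0.0272 CPM. No plate of one group came near the other, and the newborn plates varied little (40.9 ± 6.84 CPM, mean ± SD, n = 5). The log2 fold change was 10.50 (SE 0.58, adjusted p = 1.98e-05; 0.00696 with the pool block). Hmga2 had a read in 77.4% of newborn and 1.40% of adult cells, and in 68.5% and 0.280% of cells thinned to 200000 reads each. Among newborn cTEC 71.9% of cells had a read, and among newborn mTEChi (the sort with high MHC class II) 10.5%.

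Hmga2 mRNA is the textbook target of the let-7 miRNAs, which pair with CTACCTC in its 3′ UTR. The let-7 sequence (RefSeq, GRCm38.p6, chr13:48538239-48538260, minus strand) and the 4 sites are shown because they mark the best known control point of this gene. Capitals mark the seed (bases 2 to 8) in let-7a and its match in the Hmga2 3′ UTR of 3014 bases (GENCODE M21 transcripts), where the matches lie at chr10:120364225-120364231, chr10:120362988-120362994, chr10:120362550-120362556 and chr10:120361692-120361698 of GRCm38, in the order given.
mmu-let-7a-5p: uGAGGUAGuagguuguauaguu
Hmga2 site 1: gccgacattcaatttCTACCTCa
Hmga2 site 2: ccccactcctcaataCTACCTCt
Hmga2 site 3: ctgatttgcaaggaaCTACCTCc
Hmga2 site 4: aatcaaaacacactaCTACCTCt
CTACCTC lay in the 3′ UTR of 10.3% of all tested genes with one, of 10.3% of those called higher and of 10.1% of those called lower. At least 3 matches lay in 0.164% of these tested genes (25), 0.433% of those called higher (6) and 0.209% of those called lower (2). The part of let-7 in these levels was not tested. Nr6a1, an orphan nuclear receptor with 8 matches, was lower in newborn plates (17.8 ± 3.40 against 41.9 ± 9.39 CPM, log2 fold change -1.29, adjusted p = 0.00187), and without the pool of 8 weeks its log2 fold change was -0.91 and it was not called. Lin28b, an inhibitor of let-7 processing with 4 matches, was at 1.21 ± 1.58 CPM in newborn and 0.642 ± 0.943 CPM in adult plates (adjusted p = 0.592). No mature miRNA was measured here.

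Igf2bp2, an RNA-binding protein of growth-factor mRNAs (ENSMUSG00000033581, GRCm38 chr16:22059009-22163299, minus strand), was at 94.0, 123.2, 107.2, 100.1 and 99.9 CPM in newborn plates. Adult plates gave 6.63, 5.90, 4.52, 4.86 and 10.5 CPM, all far below the newborn plates. The log2 fold change was 3.95 (SE 0.26, adjusted p = 3.94e-05; 0.00589 with the pool block). In contrast to the sparse Hmga2 reads of mTEChi, Igf2bp2 was also higher in newborn than in adult mTEChi (log2 fold change 2.02, adjusted p = 0.000162). Grb10, an imprinted adaptor that restrains growth-factor signalling, was at 364.2 ± 71.4 against 96.8 ± 36.9 CPM (log2 fold change 1.85, adjusted p = 0.00142). Gpc3, a glypican that restrains fetal growth, was at 37.8 ± 11.6 against 5.63 ± 4.08 CPM (2.68 on the log2 scale, adjusted p = 0.00322), and without the pool of 8 weeks its log2 fold change was 3.95. Hmga1, the sister gene of Hmga2, was at 14.7 ± 3.24 against 3.95 ± 0.419 CPM (log2 fold change 1.84, adjusted p = 0.0005). Grb10, Gpc3 and Hmga1 stayed called without any 1 plate and without either set of adult pools.

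The maternally expressed RNAs Meg3 and Rian of the Dlk1 locus were called but rested on few plates. Meg3 had a log2 fold change of 4.95 (adjusted p = 0.0285), with the call lost without plate 18, 5 or 32 (4.44 to 4.66, adjusted p = 0.0531 to 0.0655) and a value of 8.43 without plate 33, where 1 cell held 89.3% of all adult reads. Rian had a log2 fold change of 4.93 (adjusted p = 0.0121), 4.09 without plate 18 and 5.80 without plate 33. Without the pool of 8 weeks, Rian was at 5.04 and was not called (adjusted p = 0.0539). Igf2 itself was low in every plate, at 2.32 ± 1.59 CPM in newborn and 0.177 ± 0.245 CPM in adult plates. Its log2 fold change was 3.66 (adjusted p = 0.0157), 4.90 without plate 33, and its call was lost without the pools of 4 and 5 weeks (3.28, adjusted p = 0.0575).

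**Figure D1:**
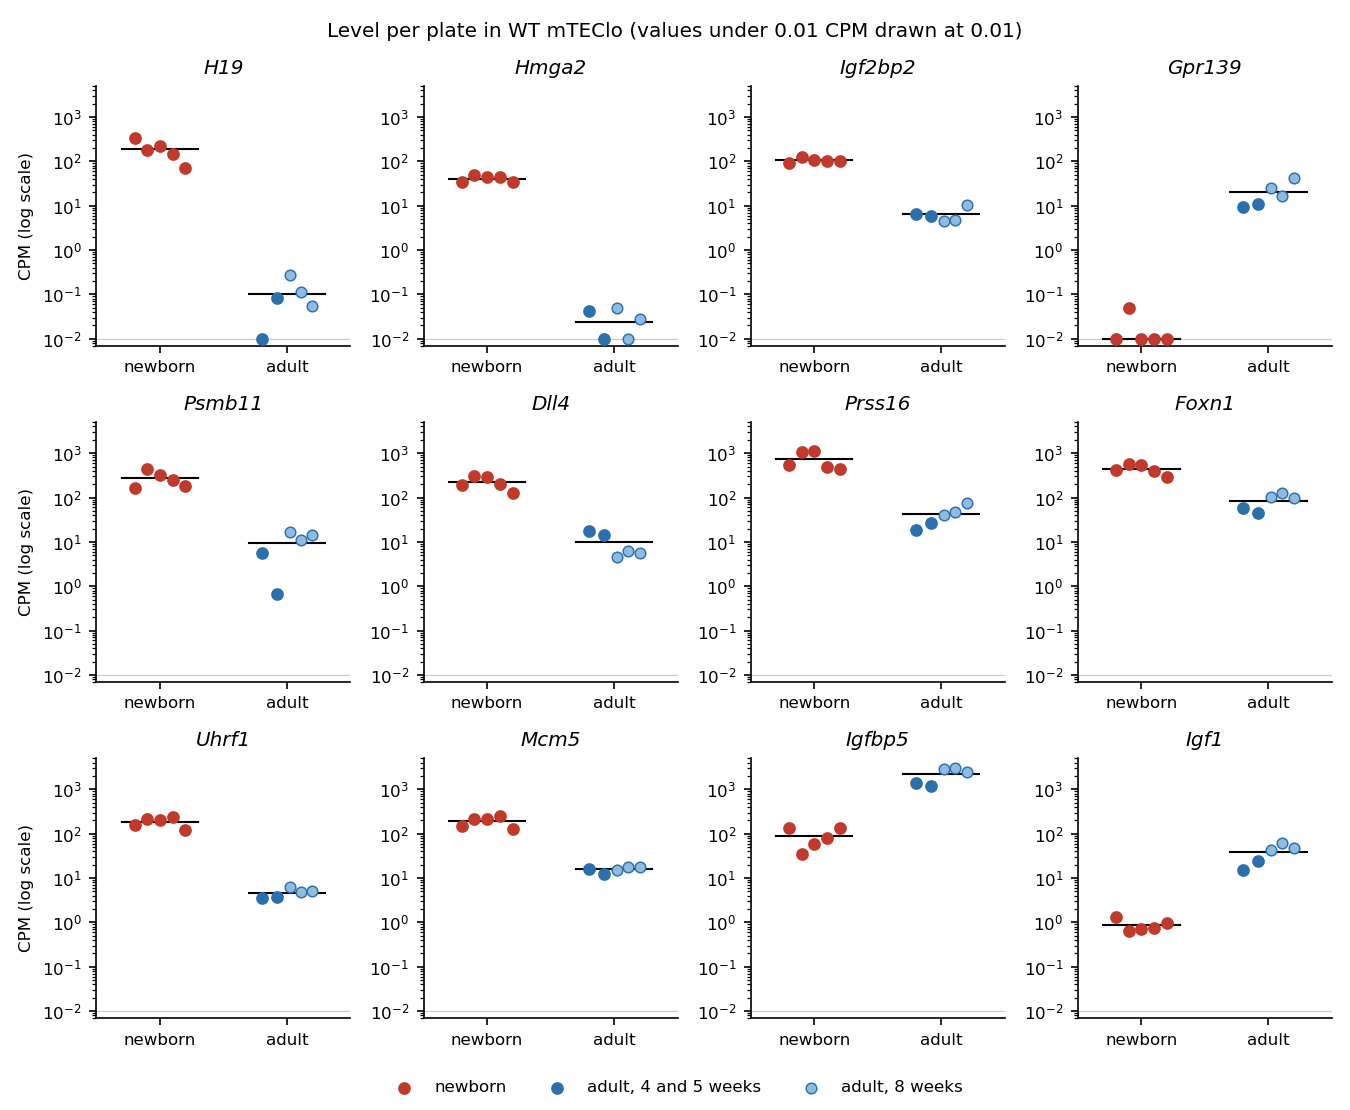
Level of 12 genes in each plate, as CPM on a log axis (values under 0.01 drawn at 0.01), with newborn plates in red, adult plates of 4 and 5 weeks in dark blue and of 8 weeks in light blue, and a line at each group mean. In the panel of H19 the newborn plates lie between 70.7 and 332.7 CPM and no adult plate passes 0.267 CPM, while Gpr139, Igfbp5 and Igf1 lie lower in every newborn plate than in any adult plate.

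Genes of cortical epithelium were higher in the newborn plates although the sort excluded Ly51+ cells. Of 17 listed and tested genes 12 were higher and 0 lower, against 8.93% and 7.32% of all genes tested. Their median log2 fold change was 2.20. The summed level of the list ran from 4193 to 7945 CPM (median 4985) in newborn and from 921.2 to 2672 CPM (median 2397) in adult plates. With the pool block 6 were called, against 1.2% of all genes tested higher: Psmb11, Prss16, Cxcl12, Dll4, Kitl and Foxn1. The 5 genes not called were Ctsl, Il7, Cd83, Slc46a2 and Isl1. With the pool of 8 weeks left out 16 were higher and 0 lower, and without the pools of 4 and 5 weeks 11 were higher and 1 lower.

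Psmb11, the catalytic subunit of the thymoproteasome that marks cTEC (ENSMUSG00000072423, GRCm38 chr14:54621433-54629556, plus strand), was at 164.4, 441.97, 317.03, 253.9 and 180.1 CPM in newborn plates. Adult plates 2, 5, 32, 33 and 34 gave 5.52, 0.667, 16.8, 10.8 and 14.3 CPM. All newborn plates lay above all adult plates, and plate 5 was the lowest of all. The log2 fold change was 4.77 (SE 0.74, adjusted p = 0.00148; 0.033 with the pool block), with 6.41 without the pool of 8 weeks and 4.23 without the pools of 4 and 5 weeks. A Psmb11 read was present in 98.4% of newborn and 16.8% of adult cells. The median newborn mTEClo cell had 162.3 CPM, and the median newborn cTEC 924.7 CPM.

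Prss16, the thymus-specific serine protease (GRCm38 chr13:22002173-22009742, minus strand), was at 541.9, 1080.7, 1142.9, 489.2 and 431.1 CPM in newborn plates and at 18.9, 26.3, 40.9, 47.7 and 77.3 CPM in adult plates. Its log2 fold change was 4.08 (SE 0.48, adjusted p = 0.00037; 0.0348 with the pool block), and 4.99 without the pool of 8 weeks. Dll4, the Notch ligand that commits progenitors to the T lineage (GRCm38 chr2:119325784-119335962, plus strand), was at 191.99, 307.1, 297.8, 203.99 and 129.6 CPM in newborn plates and at 17.8, 14.4, 4.66, 6.19 and 5.69 CPM in adult plates. The groups of both genes stood far apart, with the adult plates of 8 weeks highest for Prss16 and lowest for Dll4. For Dll4 the log2 fold change was 4.49 (SE 0.47, adjusted p = 0.000219; 0.0296 with the pool block), with 3.76 without the pool of 8 weeks and 5.30 without the pools of 4 and 5 weeks.

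Foxn1, the transcription factor that directs thymic epithelial differentiation (GRCm38 chr11:78357577-78386558, minus strand), was at 424.6, 578.01, 531.9, 394.01 and 283.4 CPM in newborn plates. In adult plates it was at 57.5, 44.2, 101.1, 126.3 and 98.5 CPM, again without overlap. Its log2 fold change was 2.32 (SE 0.32, adjusted p = 0.00079; 0.0471 with the pool block), and 3.07 without the pool of 8 weeks. Cxcl12, a chemokine that attracts thymocyte progenitors, was at 634.7 ± 198.9 against 91.8 ± 58.6 CPM (log2 fold change 2.74, adjusted p = 0.00466; 4.46 without the pool of 8 weeks). Kitl, the ligand of the progenitor receptor Kit, was at 124.6 ± 38.2 against 22.2 ± 12.1 CPM (2.44, adjusted p = 0.00247; 3.56 without the pool of 8 weeks). Ly75, the endocytic receptor DEC-205, was at 614.7 ± 164.6 against 128.9 ± 56.96 CPM (2.20, adjusted p = 0.00211; 3.10 without the pool of 8 weeks), and missed the threshold with the pool block (0.0557). Enpep was called higher (1.84, adjusted p = 0.0311), with the call lost without any one of plates 17, 18, 20, 5, 32 or 33 (adjusted p = 0.0531 to 0.0721) and a log2 fold change of 3.21 without the pool of 8 weeks.

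In single cells, 99.2% ± 1.79 of the cells of a newborn plate and 51.2% ± 21.9 of an adult plate carried at least 5 reads of at least 4 of 8 cortical markers (mean ± SD, n = 5 plates each; exact two-sided permutation test, p = 0.00794, the smallest that 5 plates against 5 allow, adjusted p = 0.0119 over 3 shares). The newborn plates gave 100, 100, 96.0, 100 and 100%, and the adult plates 33.3, 22.97, 70.1, 58.8 and 70.8%. No adult plate reached a newborn plate, and the plates of 4 and 5 weeks were the lowest. In cells thinned to 200000 reads the shares were 88.3% ± 13.2 and 31.1% ± 16.2. The same markers were present in 100% of newborn and 98.7% of adult cTEC, and in 96.5% of newborn and 90.2% of adult mTEChi cells. How far reads from other wells entered these marker counts was not tested.

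**Figure D2:**
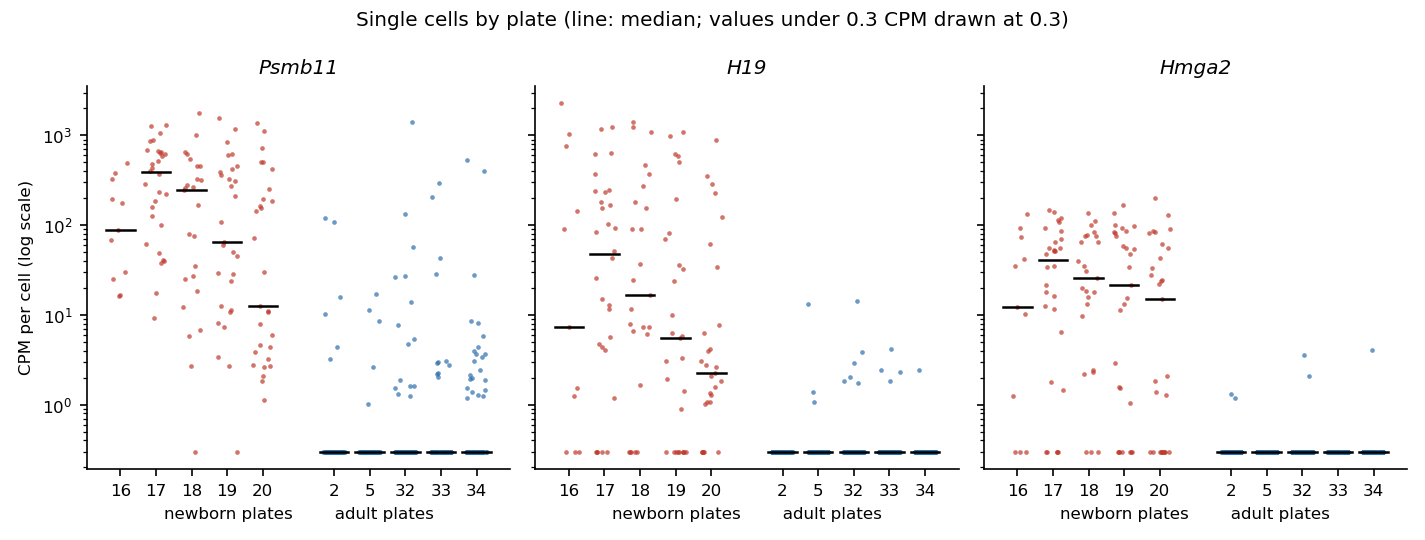
Level of Psmb11, H19 and Hmga2 in each cell, by plate, as CPM on a log axis (values under 0.3 drawn at 0.3), with a line at each plate's median. Psmb11 reads appear in 98.4% of newborn and 16.8% of adult cells, and H19 and Hmga2 in 77.4% of newborn and in 3.92% and 1.40% of adult cells.

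All 29 listed genes of S and G2/M phase were tested and all 29 were higher in newborn plates, against 8.93% of all genes tested. Their median log2 fold change was 4.68. Their summed level ran from 1392.5 to 3203 CPM (median 2545) in newborn and from 163.2 to 240.7 CPM (median 210.5) in adult plates. With the pool block 9 were called, namely Mcm2, Mcm3, Mcm4, Mcm5, Mcm6, Rrm2, Hells, Gins2 and Uhrf1, which act in DNA replication, nucleotide supply or chromatin maintenance. None of the mitotic genes was among these 9, and whether replication and mitotic genes differed from each other was not tested. The pool block called 1.2% of all genes tested higher.

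Uhrf1, which guides maintenance DNA methylation at replication forks (GRCm38 chr17:56303321-56323486, plus strand), was at 158.8, 220.2, 204.9, 236.2 and 123.4 CPM in newborn plates and at 3.47, 3.77, 6.36, 4.97 and 5.03 CPM in adult plates. Its log2 fold change was 5.27 (SE 0.27, adjusted p = 1.11e-05; 0.0101 with the pool block). Mcm5, a subunit of the replicative helicase (GRCm38 chr8:75109569-75128439, plus strand), was at 149.7, 210.2, 210.8, 249.8 and 127.7 CPM in newborn plates and at 16.2, 12.3, 15.1, 17.7 and 17.4 CPM in adult plates. For both genes plate 19 was the highest and plate 20 the lowest newborn plate, and no adult plate came near them. For Mcm5 the log2 fold change was 3.54 (SE 0.22, adjusted p = 3.94e-05; 0.0156 with the pool block).

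Cdk1, the kinase that drives entry into mitosis (GRCm38 chr10:69335146-69352938, minus strand), was at 46.8, 80.7, 125.04, 107.7 and 29.6 CPM in newborn plates and at 0.746, 0.367, 1.43, 0.926 and 1.33 CPM in adult plates. The groups did not overlap, though the newborn plates spread over a wider range than for Mcm5. For Cdk1 the fold change was 6.30 on the log2 scale (SE 0.56, adjusted p = 0.00011; 0.0729 with the pool block), with 7.09 without the pool of 8 weeks. Rrm2, the small subunit of ribonucleotide reductase, was at 73.6, 151.8, 144.8, 151.9 and 74.9 CPM in newborn plates and at 0, 0.0167, 1.92, 1.65 and 1.85 CPM in adult plates. Its log2 fold change of 6.74 (SE 1.13, adjusted p = 0.00226) became 13.03 without the pool of 8 weeks and 5.99 without the pools of 4 and 5 weeks, since plates 2 and 5 had almost no reads. Aurkb and Bub1, a kinase and a checkpoint protein of mitosis, had log2 fold changes of 6.61 (7.32 without plate 34) and 6.34 (6.99 without plate 32), with adjusted p of 0.000931 and 0.00231.

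Promoters of 3 of these genes are printed because the S and G2/M genes moved together and some carry known motifs of such genes. These are the E2F site of the S phase and the CHR element of G2 and mitosis. The 3 printed are among the promoters with matches. Each is the RefSeq promoter of GRCm38.p6, from 250 bases before to 50 after the start of the transcript. Capitals mark the letters TTTGGCGC, TTTGCCGC, TTTCGCGC or TTTCCCGC (E2F) and TTTGAA (CHR), each searched on both strands. Mcm5 (chr8:75109259-75109558, plus strand) held 2 overlapping E2F matches on opposite strands, Cdk1 (chr10:69352863-69353162, minus strand) 1 E2F and 2 CHR matches, and Ccnb2, cyclin B2 (chr9:70421505-70421804, minus strand), 2 CHR matches.
Mcm5: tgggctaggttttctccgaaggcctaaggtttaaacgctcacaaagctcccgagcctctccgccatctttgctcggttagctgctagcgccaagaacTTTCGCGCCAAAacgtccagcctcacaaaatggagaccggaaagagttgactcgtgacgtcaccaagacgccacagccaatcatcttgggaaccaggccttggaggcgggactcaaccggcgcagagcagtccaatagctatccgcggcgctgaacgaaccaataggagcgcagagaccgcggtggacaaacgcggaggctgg
Cdk1: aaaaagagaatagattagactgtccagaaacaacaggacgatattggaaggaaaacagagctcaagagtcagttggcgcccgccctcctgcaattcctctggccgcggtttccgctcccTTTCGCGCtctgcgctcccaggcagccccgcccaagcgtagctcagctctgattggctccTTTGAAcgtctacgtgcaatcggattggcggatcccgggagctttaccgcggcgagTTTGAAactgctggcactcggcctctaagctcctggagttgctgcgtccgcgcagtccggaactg
Ccnb2: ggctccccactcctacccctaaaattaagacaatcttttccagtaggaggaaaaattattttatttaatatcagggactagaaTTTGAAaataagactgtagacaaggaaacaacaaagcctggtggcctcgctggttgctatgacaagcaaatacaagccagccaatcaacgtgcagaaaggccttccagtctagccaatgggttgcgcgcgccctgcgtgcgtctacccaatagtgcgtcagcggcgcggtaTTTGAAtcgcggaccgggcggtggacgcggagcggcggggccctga
An entry was found for 23 of the 29 genes, with 25 promoters. E2F letters stood in 32.0% of these and in 2.26% of all 32851 promoters of the same length, CHR letters in 32.0% and 17.9%, and CCAAT, on either strand, in 19 of the 25 promoters and 37.4%. E2F letters and CHR letters each stood in 8 of the 23 genes. Among promoters of all genes called higher 5.65% held E2F letters, of all genes called lower 2.48%, and of all genes tested 3.41%. In the same order CHR letters stood in 16.2%, 14.6% and 13.0%, and CCAAT in 38.5%, 38.4% and 37.0%. A match of letters is a description of the sequence and no evidence of binding.

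At least 4 of 8 S and G2/M markers, each with at least 5 reads, were found in 42.8% ± 14.9 of the cells of a newborn plate and 0.278% ± 0.621 of an adult plate (mean ± SD, n = 5 plates each; exact two-sided permutation test, p = 0.00794, adjusted p = 0.0119 over 3 shares). The newborn plates gave 54.5, 40.0, 40.0, 58.6 and 20.7%. Of the adult plates only plate 34 had such a cell, 1 of 72 (1.39%), and the 0 cells of the others allow shares of up to 4.68 to 5.44% (exact 95% interval, counting error only). In thinned cells the shares were 26.2% ± 10.4 and 0%. The cells that carried these markers, 51 newborn and 1 adult, were then left out. In the remaining cells 14 of 27 tested list genes were higher and 0 lower, with a median log2 fold change of 1.78, and Cdk1 was at 2.69. The 8 markers are themselves list genes, so part of this fall follows from the removal. Cells with fewer than 4 markers stayed in both groups.

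**Figure D3:**
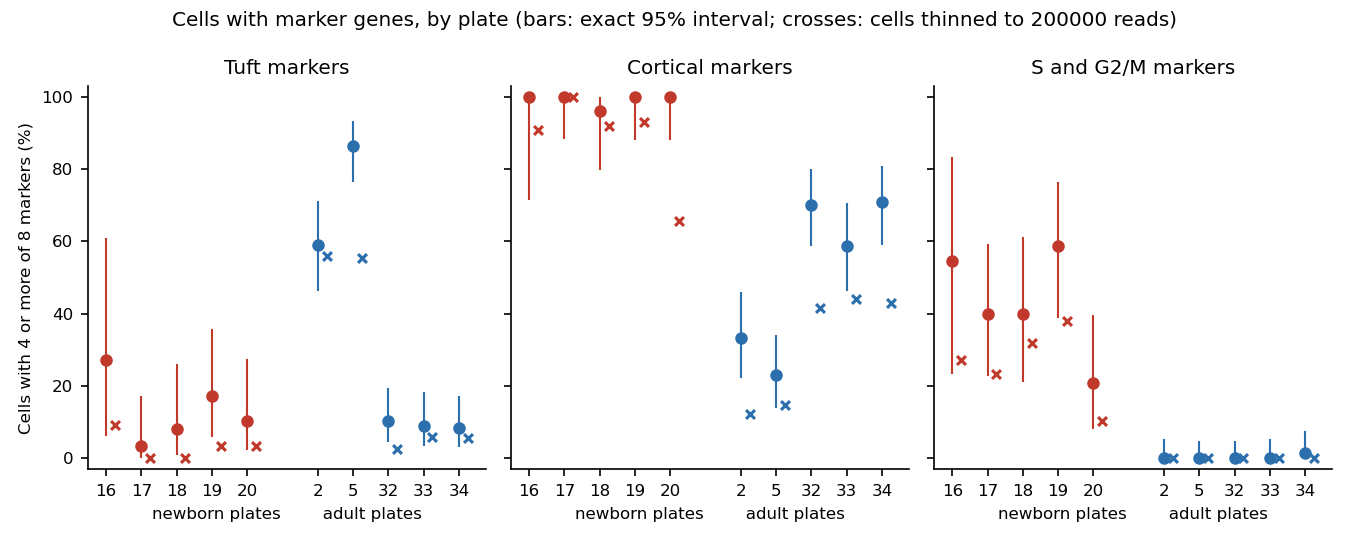
Percent of cells of each plate with at least 4 of 8 tuft, cortical or S and G2/M markers (at least 5 reads each), with exact 95% binomial intervals as bars and crosses for cells thinned to 200000 reads. The S and G2/M share is 20.7 to 58.6% in newborn and 0 to 1.39% in adult plates, while the tuft share is high only in the adult plates of 4 and 5 weeks (59.1 and 86.5%).

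Genes of the basement membrane, the sheet of laminins, collagens and nidogens on which epithelia sit, were higher in newborn plates for 13 of 29 listed and tested genes and lower for 0, with a median log2 fold change of 1.10. Of all genes tested 8.93% were higher and 7.32% lower. With the pool block 5 of the list were called, against 1.2% of all genes tested higher, among them Frem2, Lamc1, Nid1 and Nid2. The summed level of the list ran from 7329 to 10156 CPM in newborn and from 2671 to 6354 CPM in adult plates. Fibroblasts also make many of these proteins, and the summed level of 10 fibroblast markers was 973.2 to 2409 CPM in newborn and 153.8 to 958.6 CPM in adult plates. The part of fibroblast RNA in the basement membrane values was not tested. Leaving out the pool of 8 weeks gave 18 higher and 1 lower, and without the pools of 4 and 5 weeks 13 were higher and 2 lower.

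Frem2, a matrix protein that anchors embryonic epithelia (ENSMUSG00000037016, GRCm38 chr3:53513938-53657355, minus strand), was at 745.6, 1244.6, 955.7, 643.1 and 537.4 CPM in newborn plates. Adult plates gave 22.9, 24.1, 25.3, 56.5 and 29.9 CPM, of which plate 33 stood above the other 4. For Frem2 the fold change was 4.65 on the log2 scale (SE 0.36, adjusted p = 6.57e-05; 0.0156 with the pool block). Lamc1, the shared gamma chain of most laminins, was at 628.2 ± 91.6 against 155.7 ± 60.9 CPM (log2 fold change 1.95, SE 0.28, adjusted p = 0.001; 2.74 without the pool of 8 weeks). Nid1, a nidogen that links laminin to collagen, was at 87.5, 73.4, 90.5, 103.6 and 124.8 CPM in newborn and 3.43, 1.45, 5.25, 33.9 and 4.60 CPM in adult plates. Every newborn plate lay above every adult plate, of which plate 33 was the highest. For Nid1 the fold change was 3.25 on the log2 scale (SE 0.77, adjusted p = 0.0118; 0.0331 with the pool block), 4.63 without plate 33 and 5.23 without the pool of 8 weeks.

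On the lower side, Gpr139 was nearly silent in the newborn plates. Gpr139, an orphan G protein-coupled receptor known from brain (ENSMUSG00000066197, GRCm38 chr7:119140747-119184603, minus strand), was at 9.22, 11.0, 24.5, 16.7 and 42.6 CPM in the adult plates. In the newborn plates it was at 0, 0.0485, 0, 0 and 0 CPM, a single read against 4244 adult reads. Per read sequenced, adult cells had 1548.62 times the newborn level (exact Poisson interval 277.797 to 61181.4, counting error only). The fitted log2 fold change was -10.36 (SE 0.84, adjusted p = 8.45e-05; 0.163 with the pool block), -12.36 without plate 17 and -9.27 without the pool of 8 weeks. Only 24.1% of adult cells had a Gpr139 read and 13.2% had at least 5, so the adult level came from a minority of cells.

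Igf1, an insulin-like growth factor (GRCm38 chr10:87858265-87937042, plus strand), was at 1.33, 0.631, 0.715, 0.741 and 0.962 CPM in newborn and 15.1, 24.4, 42.6, 60.3 and 46.99 CPM in adult plates. For Igf1 the fold change was -5.52 on the log2 scale (SE 0.44, adjusted p = 7.57e-05; 0.122 with the pool block), and -4.56 without the pool of 8 weeks. Igfbp5, a binding protein of this factor (GRCm38 chr1:72857932-72874884, minus strand), was at 132.2, 34.3, 59.7, 79.6 and 136.98 CPM in newborn and 1398.8, 1214.8, 2925, 3086 and 2448 CPM in adult plates. For both genes every adult plate lay above every newborn plate, and the plates of 8 weeks were the highest. For Igfbp5 the log2 fold change was -4.72 (SE 0.46, adjusted p = 0.000159; 0.0315 with the pool block), and -3.96 without the pool of 8 weeks.

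Scn7a, an atypical sodium channel, was at 2.42, 2.43, 7.95, 0.988 and 0 CPM in newborn and 27.4, 93.3, 717.5, 513.7 and 523.7 CPM in adult plates. For Scn7a the fold change was -7.18 on the log2 scale (SE 1.27, adjusted p = 0.0029), -8.14 without plate 18 and -4.50 without the pool of 8 weeks, whose plates held most of the reads. Zbtb16, the transcription factor PLZF, was at 1.29 ± 1.09 against 28.1 ± 11.3 CPM (log2 fold change -4.53, adjusted p = 0.00231; -3.75 without the pool of 8 weeks). On the opposite side, Myo16, an unconventional myosin, was at 92.9, 140.3, 169.5, 61.9 and 90.1 CPM in newborn and at 0.107 to 0.750 CPM in adult plates (log2 fold change 7.77, SE 0.57, adjusted p = 5.43e-05; 0.0315 with the pool block). Adra2c, an adrenergic receptor, was at 24.7 ± 8.47 against 0.0727 ± 0.0906 CPM (8.35, adjusted p = 9.68e-05; 9.32 without plate 33, 9.11 without the pool of 8 weeks). Muc5b, a gel-forming mucin, had a log2 fold change of 7.93 (adjusted p = 0.0057) that came from plates 18 and 20, at 687.6 and 1089.4 CPM, and 1 cell of plate 20 held 54.1% of the newborn reads. Without plate 20 it was 6.97, and without the pool of 8 weeks it was not called (8.74, adjusted p = 0.0664).

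Of the 19 genes of medullary progenitors and adhesion 1 was higher and 5 were lower, against 8.93% and 7.32% of all genes tested. Their median log2 fold change was -1.08, and none was called with the pool block (adjusted p of Ccl21a 0.515). Without the pool of 8 weeks the list turned to 3 higher and 1 lower, with a median of -0.05. Ccl21a, the chemokine that draws thymocytes into the medulla, was at 12.6, 10.3, 9.74, 21.7 and 11.3 CPM in newborn and 26.2, 22.1, 106.9, 107.97 and 108.3 CPM in adult plates (log2 fold change -2.56, adjusted p = 0.0051). Its reads may be shared with near-identical copies of the gene, which the counting could split. Krt5, the basal keratin of medullary cells, was at 190.4, 223.2, 304.7, 490.1 and 300.9 CPM in newborn and 252.1, 334.7, 1397.2, 1447.6 and 1508.96 CPM in adult plates (-1.77, adjusted p = 0.0316). Both genes were high in the plates of 8 weeks, and plates 2 and 5 lay beside the newborn plates. Without the pool of 8 weeks their log2 fold changes were -0.94 (adjusted p = 0.0853) and -0.01 (0.988), and the Krt5 call was also lost without any one of plates 16, 17, 18, 20, 32, 33 or 34 (adjusted p = 0.0587 to 0.074).

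Itga6, the laminin-binding integrin alpha 6, had a log2 fold change of -1.52 (adjusted p = 0.0144) and of -0.39 (0.294) without the pool of 8 weeks. Fst, the activin inhibitor follistatin, had a log2 fold change of -4.66 (adjusted p = 0.0171), -6.17 without plate 19, and -2.93 (0.176) without the pool of 8 weeks. The listed gene that was higher, Ackr4, a scavenger receptor of Ccl21 and Ccl25, was at 232.5 ± 51.8 against 60.8 ± 28.2 CPM (1.89, adjusted p = 0.00191; 1.29 without the pool of 8 weeks). Ackr4 counted here only through its place on the list, and whether it marks medullary or cortical cells was not tested. Trp63, the transcription factor that maintains epithelial progenitors, was at 559.9 ± 112.5 CPM in newborn and 591.1 ± 335.2 CPM in adult plates (-0.14, adjusted p = 0.83). The part of the adult age in these values cannot be told apart from the plates.

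The lists of mimetic cells were counted next, and none of their genes was called with the pool block. Of 22 tuft genes 0 were higher and 3 lower (Rgs13, Alox5 and Ltc4s), against 7.32% of all genes tested, with a median log2 fold change of -2.62 and adjusted p of 0.463 to 0.648 with the pool block. The list had 12 lower by DESeq2, 11 in thinned cells, 11 with all WT mTEC plates in the fit and 10 without the pool of 8 weeks. The 3 calls were lost without the pools of 4 and 5 weeks, where the list had a median of -0.11, and without several single plates, plates 2 and 5 among them. Cells with at least 4 of 8 tuft markers made up 13.2% ± 9.31 of newborn and 34.6% ± 36.2 of adult plates (exact two-sided permutation test, p = 0.317, n = 5 plates each). Newborn plates gave 27.3, 3.33, 8.00, 17.2 and 10.3%, and adult plates 59.1, 86.5, 10.4, 8.82 and 8.33%. Only plates 2 and 5 stood above the newborn plates, and without these pools the newborn share was 4.06 points higher (p = 0.607).

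Of 11 neuroendocrine genes tested of 14 listed 0 were higher and 6 lower, against 7.32% of all genes tested, with a median log2 fold change of -3.21 and adjusted p of 0.518 to 0.879 with the pool block. Stxbp5l, a regulator of vesicle release, was at 162.6, 294.5, 73.7, 0.723 and 0.544 CPM in adult plates and at 0 to 2.42 CPM in newborn plates (log2 fold change -7.12, adjusted p = 0.0151). Adult plates 33 and 34 lay within the newborn range. The value was -7.76 without plate 16 and -6.27 without plate 5, and without the pools of 4 and 5 weeks it was -4.98 (adjusted p = 0.0512), at which setting 0 of 10 genes of the list were called. Of 14 enterocyte and hepatocyte genes tested (15 listed) 0 were higher and 3 lower (Apob, Hnf4a and Hnf4g), with a median of -0.95, and Apob, at 192.4 CPM in plate 2, went from -7.20 to -3.90 without that plate. Of 14 keratinocyte genes tested (15 listed) 0 were higher and 2 lower (Krt10 and Flg), with a median of 0.22, and Krt10 (-2.14, adjusted p = 0.0312) was at -1.09 without plate 32 and lost its call without any 1 newborn plate (adjusted p = 0.0537 to 0.0686). Of 10 microfold genes 0 were higher and 1 lower (Ccl6), with a median of -0.58. The share to set beside each of these lists is 8.93% higher and 7.32% lower over all genes tested.

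Of 17 genes of MHC class II and costimulation 1 was higher (Cd40) and 3 lower (Pdcd1lg2, Ctss and H2-Ob), against 8.93% and 7.32% of all genes tested, with a median log2 fold change of 0.02. With the pool block none was called (adjusted p = 0.123 to 0.555), and without the pool of 8 weeks 5 were higher and 2 lower. H2-Aa, a class II chain, was at 798.5 ± 117.4 CPM in newborn and 680.8 ± 267.1 CPM in adult plates (0.17, adjusted p = 0.67). Pdcd1lg2, the checkpoint ligand PD-L2, was at 7.26, 4.56, 2.86, 2.57 and 3.39 CPM in newborn and 21.3, 21.4, 34.1, 24.6 and 43.6 CPM in adult plates, without overlap (-2.89, SE 0.35, adjusted p = 0.000426; 0.123 with the pool block).

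Of 34 interferon and MHC class I genes 0 were higher and 7 lower (Nlrc5, Ifi47, Psmb8, B2m, Stat2, Ifi27 and H2-D1), against 7.32% of all genes tested lower, with a median log2 fold change of -0.72. With the pool block none was called (adjusted p = 0.0784 to 0.565). B2m, the light chain of MHC class I, was at 409.4, 291.7, 403.99, 504.3 and 564.4 CPM in newborn and 803.6, 830.98, 1101.6, 1144.4 and 1181.1 CPM in adult plates (-1.28, SE 0.19, adjusted p = 0.00116). Psmb8, a subunit of the immunoproteasome, was at 24.6 ± 7.08 against 60.7 ± 8.52 CPM (-1.36, adjusted p = 0.00126). H2-D1, a class I heavy chain whose reads can be shared with related genes, was at 452.2 ± 106.9 against 886.3 ± 40.0 CPM (-1.03, adjusted p = 0.00127), and without plate 17 it was at -0.93 and fell short of the fold threshold. Nlrc5, the class I transactivator, was at 89.9 ± 50.9 against 301.04 ± 89.7 CPM (-1.81, adjusted p = 0.0075). Without the pool of 8 weeks, Nlrc5 was at -1.28 (adjusted p = 0.0955), B2m at -0.97 (0.0171), short of the fold threshold, and the list had 3 genes lower with a median of 0.19. Without the pools of 4 and 5 weeks 13 were lower, with a median of -0.98.

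Of 17 chemokine genes tested of 21 found 2 were higher (Cxcl12 and Ccl25) and 3 lower (Cxcl14, Ccl21a and Ccl6). This stands against 8.93% and 7.32% of all genes tested, and the median log2 fold change was 0.07. Of 20 genes of RANK and NF-kB signalling, which drives medullary maturation, 2 were higher (Cd40 and Ltbr) and 2 lower (Tnfaip3 and Tnfrsf11a). These counts lie near the 8.93% and 7.32% of all genes tested, and the median was 0.07. Ltbr, the lymphotoxin beta receptor, was at 151.7, 160.7, 138.8, 167.05 and 144.3 CPM in newborn and 72.1, 62.6, 81.4, 79.4 and 69.1 CPM in adult plates (1.01, SE 0.11, adjusted p = 0.000219; 0.0341 with the pool block). The groups were far apart for their spread, but the value lay at the fold threshold, with 0.96 to 0.99 without plate 17, 19, 5 or 34 and 0.94 without the pools of 4 and 5 weeks. Tnfaip3, an inhibitor of NF-kB, was at 126.8 ± 19.2 against 302.2 ± 97.6 CPM (-1.31, adjusted p = 0.00153; -0.93 without the pools of 4 and 5 weeks). Tnfrsf11a, the receptor RANK, was at -1.07 (adjusted p = 0.017) and short of the threshold without plate 17 or 34 (-0.98 to -0.89) and without the pool of 8 weeks (-0.75, adjusted p = 0.167).

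Of 18 Notch genes 4 were higher (Dll4, Dtx4, Jag2 and Dtx1) and 0 lower, against 8.93% of all genes tested higher, with a median log2 fold change of 0.17. With the pool block Dll4 was called, and Jag2, Dtx4 and Dtx1 were not (adjusted p = 0.115 to 0.451). Jag2, another Notch ligand, was at 693.6 ± 124.3 against 289.1 ± 92.4 CPM (1.21, adjusted p = 0.00576; 0.93 without the pools of 4 and 5 weeks). Of 26 Wnt genes tested (32 listed) 2 were higher (Tcf7 and Kremen2) and 3 lower (Dkk3, Sfrp1 and Lgr5), near the 8.93% and 7.32% of all genes tested, with a median of 0.41. None of these 5 was called with the pool block (adjusted p = 0.0624 to 0.727), and without the pool of 8 weeks the list had 9 higher and 1 lower. Sfrp1, a secreted Wnt antagonist, was at 117.1 ± 31.9 against 398.4 ± 199.4 CPM (-1.83, adjusted p = 0.00706; -0.70, adjusted p = 0.107, without the pool of 8 weeks). Of 17 transcription factors of thymus identity tested (19 listed) 4 were higher (Foxn1, Pax1, Hoxa3 and Pax9) and 1 lower (Fezf2). The same 8.93% and 7.32% of all genes tested apply, and the median was 0.13. Pax1, a patterning factor of the pharyngeal pouches, was at 715.8 ± 152.8 against 188.96 ± 82.98 CPM (1.87, adjusted p = 0.00287; 0.0529 with the pool block; 2.80 without the pool of 8 weeks). Aire was at 116.6 ± 114.5 against 35.1 ± 16.1 CPM (1.66, adjusted p = 0.0968).

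**Figure D4:**
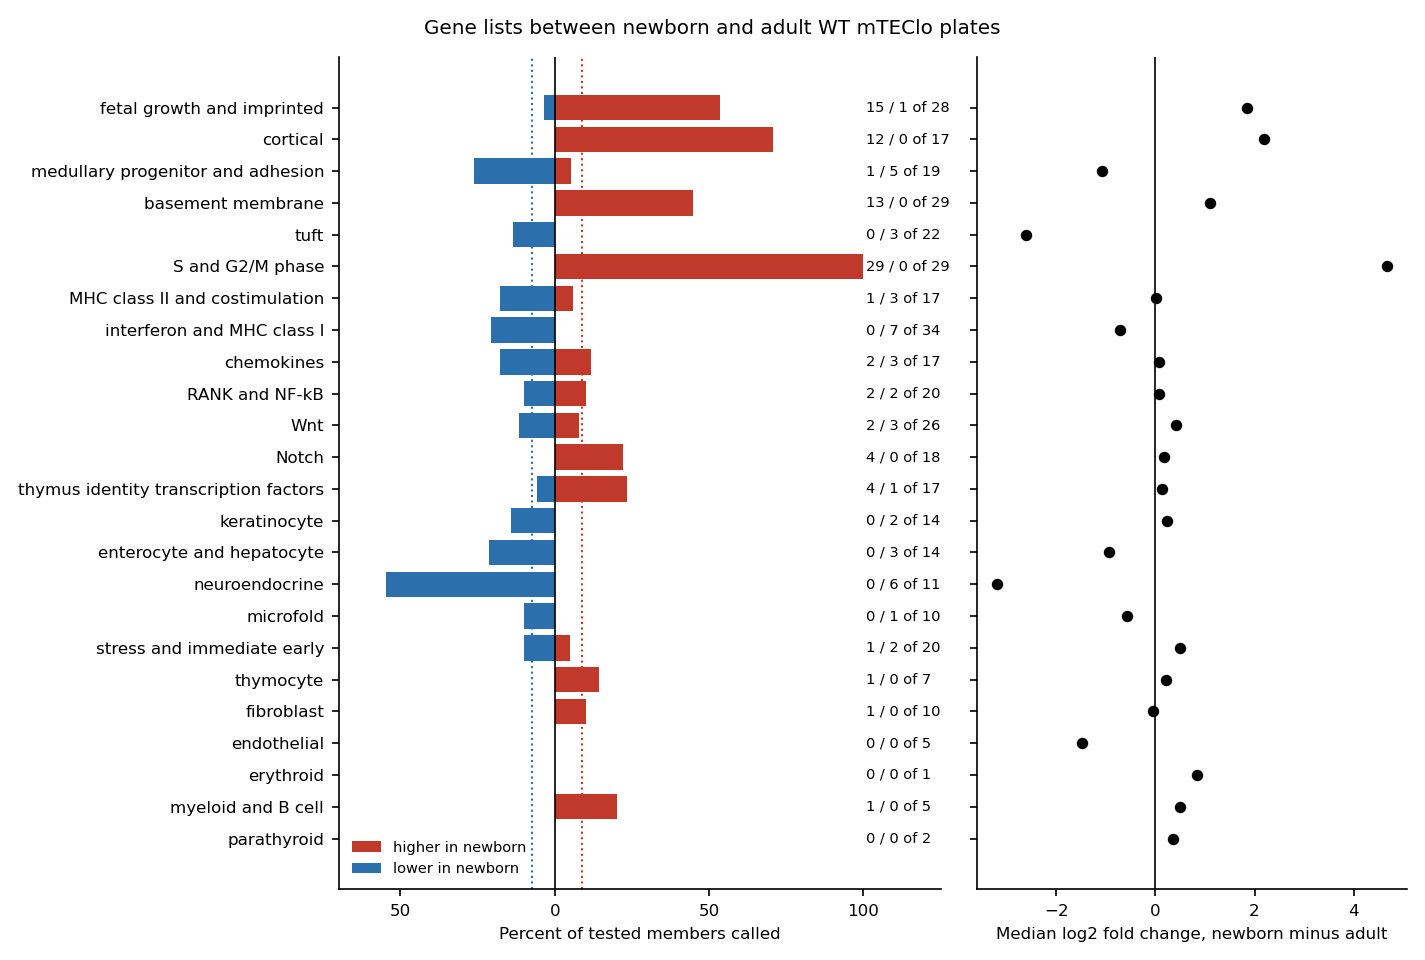
For each gene list, the percent of tested members called higher (red, to the right) or lower (blue, to the left) in newborn plates, with dotted lines at the share of all genes tested (8.93 and 7.32%), and beside it the median log2 fold change of the list. The S and G2/M list has 29 of 29 members higher and a median of 4.68, and the cortical list 12 of 17 and a median of 2.20.

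Markers of other cells that a sort can carry were counted last, beside 8.93% higher and 7.32% lower of all genes tested. Of 7 thymocyte genes tested (15 listed) 1 was higher, Rag1, through plate 18 (33.9 CPM, 70.7% of newborn reads in 1 cell), and it was at 1.89 on the log2 scale and not called without that plate. The thymocyte list summed to 13.2 to 119.5 CPM in newborn and 28.6 to 91.6 CPM in adult plates. Of 10 fibroblast genes 1 was higher, Fn1, the matrix protein fibronectin, which epithelial cells can also make (1.98, adjusted p = 0.0316, lost without any one of plates 16, 17, 18, 19 or 34). The fibroblast list summed to 973.2 to 2409 CPM in newborn and 153.8 to 958.6 CPM in adult plates, and its median log2 fold change was -0.06. Of 5 endothelial, 1 erythroid and 2 parathyroid genes tested none was called, and of 5 myeloid and B cell genes 1 was higher (Cd68, 1.40, adjusted p = 0.0078; 1.04 and not called, adjusted p = 0.0622, without the pool of 8 weeks). Parathyroid genes summed to 12.5 to 874.9 CPM in newborn and 52.6 to 251.4 CPM in adult plates, with the parathyroid factor Gcm2 at 113.03 CPM in plate 20, at most 0.121 CPM in the other newborn and 0.0486 CPM in the adult plates. Of 20 stress and immediate early genes 1 was higher (Ier3) and 2 lower (Hspa1a and Hspa1b, which share near-identical sequence), with a median of 0.49. Without the pool of 8 weeks the stress list had 1 higher and 5 lower, and without the pools of 4 and 5 weeks 11 higher and 0 lower. The part of these cells and of stress in the other results was not tested.

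Whether the newborn difference of mTEClo was larger or smaller than that of mTEChi was tested as an interaction over plates of WT cells. The newborn cells of both sorts shared plates 16 to 20. Adult cells of both sorts were not matched by plate, age or sex, and an adult mTEChi plate carried more than a single age label. Mean Xist was 137.9 CPM in adult mTEChi and 23.3 CPM in adult mTEClo plates. The part of these differences in an interaction was not tested. Of 30213 genes tested, 2.25% had a higher and 2.43% a lower newborn difference in mTEClo, and in mTEChi itself 0.616% were higher and 0.467% lower in newborn plates. Of the S and G2/M genes 27 of 29 had a higher difference in mTEClo, and 0 were called in either direction within mTEChi, where their median log2 fold change was 0.21. The 2 exceptions were Mcm7 and Ccne2. Cells with S and G2/M markers were 41.1% of newborn and 0.280% of adult mTEClo, 19.9% of newborn and 14.8% of adult mTEChi, and 28.8% of newborn and 10.4% of adult cTEC.

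Of the 17 cortical genes 7 had a higher difference in mTEClo, with interactions of 3.25 for Psmb11, 3.28 for Prss16, 3.28 for Ly75, 4.03 for Dll4, 2.54 for Kitl, 2.07 for Tbata and 2.06 for Foxn1 (log2, mTEClo minus mTEChi). Of the fetal growth genes 4 did, namely H19 (9.13), Hmga2 (8.33), Igf2 (4.12) and Igf2bp2 (1.88). Of the medullary progenitor genes 6 had a lower difference in mTEClo, namely Krt5 (-3.28), Ccl21a (-3.15), Plet1 (-2.48), Krt14 (-2.26), Ly6a (-2.21) and Itga6 (-1.72). Of the basement membrane genes Frem2 (3.73) and Col17a1 (2.04) had a higher difference. Of the interferon and class I genes 1 (Irf1, 1.17) had a higher and 3 a lower difference, and of the tuft genes none was called. The median interaction over all genes tested was -0.05. With mouse pools as the units, edgeR called 0 interactions, so that none of these calls held, and at an unadjusted p under 0.05 it had 1.71% of genes higher and 2.1% lower.

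**Figure D5:**
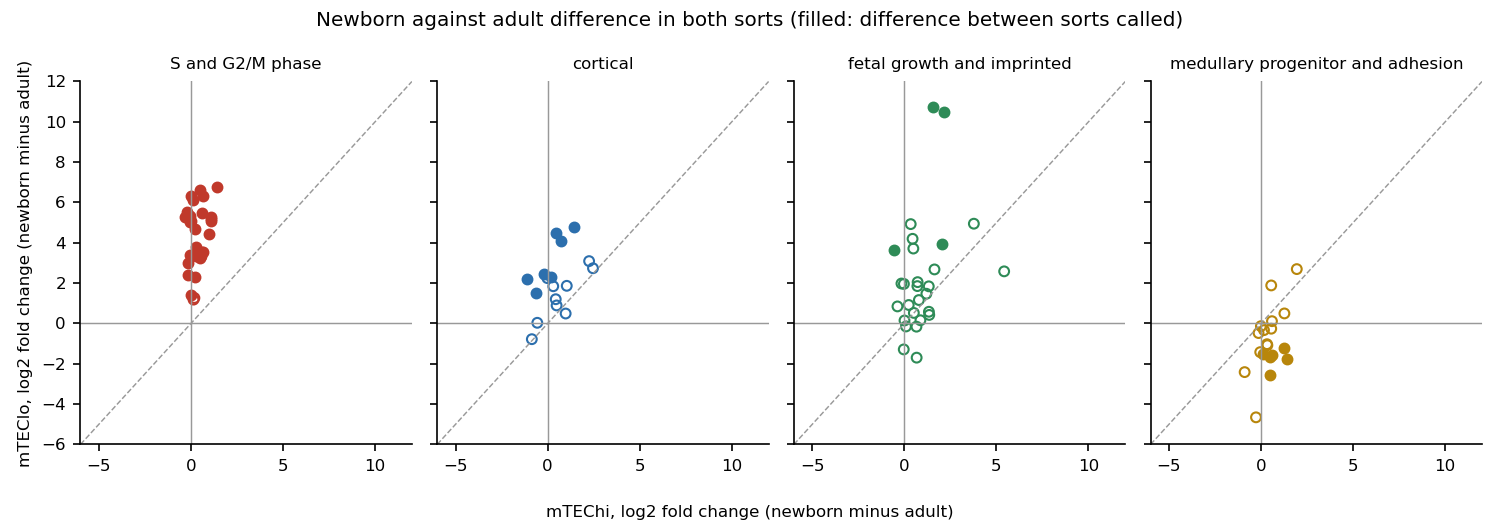
Newborn minus adult log2 fold change of each gene of the S and G2/M, cortical, fetal growth and medullary lists in mTEChi (x axis) and mTEClo (y axis), with filled points where the difference between the sorts was called. The S and G2/M genes lie near 0 on the x axis (median 0.21) and high on the y axis (median 4.68).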

How the data were processed

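Whole-number counts of reads per Ensembl gene and cell were deposited for 48437 genes. To make these counts the authors trimmed reads with fastp 0.20.0, mapped them to mm10 with STAR 2.7.3a, cleaned them with SAMtools 1.9, removed duplicates with Picard 2.21.1, counted with HTSeq 0.11.2 without regard to strand, so that antisense and overlapping genes cannot be separated, and kept cells by read and gene number. Of the 1980 cells 481 were used, 124 newborn and 357 adult, beside 171 newborn and 620 adult mTEChi cells. The 74 cells of plate 5 were sequenced in 2 runs, and how the runs were joined is not given in the sources used here. A table of values scaled by gene length was not used here.

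Cells are not replicates, so counts were summed per plate (5 newborn, 5 adult) and tested with edgeR 4.0.16 (R 4.3.3; quasi-likelihood, TMM scaling, filterByExpr, two-sided). Genes at least 2-fold apart with an adjusted p under 0.05 were called. Printed beside it are limma 3.58.1 with the mouse pool as a random block and edgeR over mouse pools. The fit over pools also held the pools of mTEChi and of adult Aire-KO mTEC. DESeq2 1.42.0, other scalings, no filter, thinned counts, single plates or pools left out, and cells with tuft or S and G2/M markers left out were alternatives. The tests were first tested on simulated data, with plates drawn independently and no effect shared within a mouse pool. The numbers of false calls below therefore do not cover the spread between mouse pools. Over plates, 2.99% of genes changed 2-fold, 44.8% changed 4-fold and 71.2% changed 16-fold were recovered, with 0 false calls. The interaction test recovered 4.48%, 16.4% and 50% of these, with 2 false calls. A gene or list member that was not called may therefore still differ.

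The members, the 24 gene lists and the tests were chosen with earlier results of these data known. Named genes were the given markers (H19, Hmga2, Gpr139 and Psmb11), for each direction the 12 largest folds among called genes at 20 CPM or more with no overlap of plates, the leading called genes of each list, and the leading interactions. The values of 2 genes that this rule or a list holds are not reported here. Other list members are named to account for a list, after their values were seen. Names and positions came from GENCODE M21 (48263 genes matched), promoters and miRNAs from RefSeq (GRCm38.p6). Depth per plate ran over 11 to 30 newborn and 66 to 77 adult cells, and intervals cover counting error only.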

Additional observations from a re-analysis of the deposited data

Results flagged for a closer look

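In 12.6% of the groups of 5 plates read (24 groups) 1 plate lay far from the other 4 (a gap above 0.71 of the range). For normally spread values this happens in about 1 in 20 groups. Values of CPM are skewed and often near 0, so the 12.6% does not measure an excess over chance. The newborn plates 16 to 20 were that plate 1, 3, 1, 6 and 3 times, and the adult plates 2, 5, 32, 33 and 34 were 1, 1, 2, 4 and 2 times. Newborn plate 17 stood out for Gpr139 (0.0485 CPM), Tnfrsf11a (low, 50.0 CPM) and Sfrp1 (low, 62.5 CPM). Newborn plate 19 stood out for Ccl11 (6.72 CPM), Fst (20.7 CPM), Ccl21a (21.7 CPM), Cxcl14 (14.97 CPM), Dkk3 (6.37 CPM) and Slc4a1 (76.4 CPM, of which 1 cell held 93.6% of the newborn reads). Newborn plate 20 stood out for Dcx (5.57 CPM), Casr (293.6 CPM) and Chga (340.9 CPM), and plate 16 for Kremen2 (low, 35.2 CPM). In 1 cell of plate 20 lay 25.3% of the newborn Casr reads and 44.4% of the Chga reads. Among the adult plates, plate 33 stood out for Adra2c (0.231 CPM), Meg3 (4.66 CPM), Frem2 (56.5 CPM) and Nid1 (33.9 CPM), plate 32 for Neil3 (0.170 CPM) and Krt10 (89.1 CPM), plate 2 for Apob (192.4 CPM), plate 5 for Hspa1b (328.6 CPM) and plate 34 for Lck (13.2 CPM). Among shares of cells 2 stood out, the cortical share of newborn plate 18 (96.0%) and the S and G2/M share of adult plate 34 (1.39%).

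For 39 of 92 named genes the newborn difference of mTEClo and of mTEChi differed by the interaction test (log2, mTEClo minus mTEChi). It was higher in mTEClo for H19 (9.13), Neil3 (8.76), Hmga2 (8.33), Kif18b (7.79), Esco2 (7.72), Myo16 (7.61), Muc5b (7.60), Adra2c (7.17), Cdca5 (7.08), Iqgap3 (6.92), Clspn (6.91), Bub1 (6.26), Hist1h1b (6.18), Aurkb (6.06), Cdk1 (5.60), Rrm2 (5.25), Dll4 (4.03), Frem2 (3.73), Prss16 (3.28), Psmb11 (3.25) and Foxn1 (2.06). It was lower in mTEClo for Gpr139 (-10.39), Scn7a (-7.62), Matn4 (-6.70), Stxbp5l (-6.59), Serpina3n (-6.02), Igf1 (-4.56), Csmd2 (-4.22), Zbtb16 (-3.95), Igfbp5 (-3.89), Cacna2d1 (-3.77), Krt5 (-3.28), Ccl21a (-3.15), Pdcd1lg2 (-2.55), Tnfaip3 (-2.34), Tnfrsf11a (-1.51), Nlrc5 (-1.49), B2m (-1.36) and Ctss (-1.05).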

How the results depend on the processing

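Numbers of genes called are given here as percent of the number called over plates. They depended most on the unit. With mouse pools as units both the higher and the lower calls were at 0, and with the pool as a random block in limma they were at 13.4% and 1.78%, which raised the share of calls in the higher direction from 54.9% to 90.2%, while it was 49.9% by DESeq2, 47.7% without the filter and 47.1% with all WT mTEC plates in the fit. Without the cells that carried S and G2/M markers they were at 51.4% and 60.4%. The other alternatives gave 81.6 to 119.4% for higher and 81.7 to 148.9% for lower calls, among them DESeq2 with 117.4% and 143.9%, and leaving out 1 plate gave 82.8 to 100.6% and 79.1 to 105.8%. The genes that differed between the sorts were at 182.2% by DESeq2, 0% over pools, and 67.4 to 114.2% without 1 plate. The tuft difference of -21.4 points was -27.96 to -8.42 without 1 plate and turned to 4.06 without the pools of 4 and 5 weeks. The cortical difference of 47.98 points was 40.9 to 52.9 without 1 plate, and it missed the threshold at 19.5 with 1 or more reads per marker, at 71.05 without the pool of 8 weeks and at 32.6 without the younger pools. The S and G2/M difference of 42.5 points was 38.5 to 48.01 without 1 plate, and 42.8 and 42.3 without these pools, where 5 plates against 2 cannot pass and 5 against 3 gave an exact p of 0.0357 (0.0536 adjusted). Of 81 named genes called, 61 stayed called without every single plate in turn, 60 without the pool of 8 weeks, 62 without the younger pools and 15 with the pool block. Direction turned only for genes not called. Lck ran from -0.0046 to 0.392 without 1 plate, Tek was at 0.114 without cells with tuft markers, Lyz2 ran from -1.41 to 0.189 without 1 plate and was at 0.726 without the younger pools, Casr from -1.76 to 0.185 and at 0.516, and Chga from -2.29 to 1.899 without 1 plate and at -0.249 without the pool of 8 weeks. The cause of each was not tested. Leaving out cells with cortical markers could not be run, since 1 newborn cell remained. No paired analysis was possible because replicate numbers in the labels only name cells and newborn and adult cells lay on different plates. The newborn plates held both sorts, and with the plate as a random block in limma (correlation within plates 0.192) the genes that differed between the sorts were at 88.2%.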

Other observations

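Besides protein-coding genes, the counts cover other kinds of transcript. Of the processed pseudogenes tested 16.5% were higher and 5.56% lower in newborn plates, against 9.16% and 6.3% of 15335 protein-coding genes. Processed pseudogenes can share reads with their parent genes, so these calls are uncertain. Of the transcripts in GENCODE's class TEC, models that still await experimental proof, 5.13% were higher and 13.3% lower, and of the lincRNAs 8.34% were higher and 10.4% lower.

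Xist was called higher in newborn plates (log2 fold change 3.83, adjusted p = 0.00219), and the Y-linked genes Kdm5d, Uty, Ddx3y and Eif2s3y had log2 fold changes from -0.60 to -1.15. Cells with more Xist than Y-linked reads made up 16.7 to 45.5% of the cells of a newborn plate and 0 to 10.4% of an adult plate, although the adult mice are labelled male. In plates 32, 33 and 34 between 90.3 and 97.4% of cells had a Xist read, and in plates 2 and 5 this was 10.6 and 12.2%. Reads from other wells or libraries and a female mouse cannot be told apart here, and their part in the low levels of these plates was not tested.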
